A study of Mus musculus with 82 samples.

Results

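Section 287 of the mouse suprachiasmatic nucleus (SCN) was compared between the high and the low side of its dorsal-ventral coordinate. Its members are the hexagons with an anterior-posterior coordinate of 287, 14 of the 82 in the series. They were grouped by the dorsal-ventral coordinate into 7 hexagons at 670 or more (high side, 688 to 899) and 7 under 670 (low side, 320 to 657). The series holds hexagons at 9 anterior-posterior coordinates of the SCN of untreated C57BL/6 mice aged 8 weeks, a common inbred strain with no transgene or deletion named. Sections were stained with cresyl violet, and hexagons with a largest radius of 40 µm were cut out on a grid by laser capture microdissection, so that no marker gene chose them. RNA of each hexagon was sequenced after Smart-seq2, which copies whole transcripts from a few cells. The labels give no unit for the coordinates, do not say which end of an axis is which, and name no animal, sex or time of collection. Several hexagons may therefore come from 1 animal, and every p-value below is then too small, since it measures only the spread between hexagons. Section 287 was picked with its Vip and Grp levels known from earlier work on these data, so its richness in both is a description.

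The SCN is the central circadian pacemaker of mammals. Its ventral core receives retinal input and holds neurons that make vasoactive intestinal peptide (Vip) and gastrin-releasing peptide (Grp), while vasopressin (Avp) neurons lie mostly in the dorsal shell. VIP acts through the receptor VPAC2 (Vipr2) and cAMP signalling to keep the cellular clocks of the nucleus in step, and prokineticin 2 (Prok2) carries a timing signal out of the nucleus. Nearly all SCN neurons are GABAergic. A hexagon holds several cells, so that fewer cells of a type and less RNA per cell cannot be told apart in any value below.

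The promoters of 3 of these peptide genes carry the short motifs through which the cAMP pathway and the clock act on transcription, and they are shown for that reason. Each window is the 150 bases before the RefSeq gene start on GRCm38.p6, written on the strand of the gene, with the motif in capitals. The Vip window (chr10:5639068-5639217, plus strand) holds TGACG, the core of the cAMP response element, starting 79 bases before the gene. The Prok2 window (chr6:99726393-99726542, minus strand) and the Avp window (chr2:130582589-130582738, minus strand) each hold CACGTG, the E-box bound by CLOCK and BMAL1, starting 135 and 139 bases before the gene.
Vip: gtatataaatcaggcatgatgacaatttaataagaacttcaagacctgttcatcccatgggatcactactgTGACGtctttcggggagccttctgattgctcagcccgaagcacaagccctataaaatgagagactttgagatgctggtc
Prok2: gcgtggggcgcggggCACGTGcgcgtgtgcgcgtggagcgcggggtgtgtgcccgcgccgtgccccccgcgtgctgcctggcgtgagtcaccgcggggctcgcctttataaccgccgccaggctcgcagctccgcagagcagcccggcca
Avp: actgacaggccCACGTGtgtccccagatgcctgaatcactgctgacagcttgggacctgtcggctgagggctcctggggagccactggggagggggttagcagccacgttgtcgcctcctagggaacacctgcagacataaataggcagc
Searched on both strands, TGACG occurs in 13.3% and CACGTG in 4.3% of 32851 RefSeq windows of this length. A match describes the letters and is no evidence of a bound site.

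Total counts in the 14 hexagons ran from 120175 to 1058596 (median 377331.5), with 9848 to 12522 genes detected, and 1 hexagon, replicate 6 of the low side at 320, had a total under the median of all 82 divided by 3. Median totals were 283029 on the high and 457565 on the low side. The description labels open with a letter that was read as a library set. The high side holds 3 hexagons of set E and 4 of set F, the low side 4 and 3. All hexagons of set E lie at medial-lateral coordinates of 1141 to 1276 and all of set F at 1285 to 1507. A difference along that coordinate therefore cannot be told apart from one of library set. The tissue label was checked against markers: Nms, the neuromedin S gene of many SCN neurons, was detected in all 14 hexagons (28.5 to 428 CPM), and Gad1, an enzyme of GABA synthesis, reached at least 724 CPM in each. None of the 6 markers of glutamatergic neurons, 5 of magnocellular neurons, 6 of ependymal cells and tanycytes or 6 of meningeal fibroblasts passed the filter on low counts. Their summed levels ran from 0 to 76.1, 0 to 41.6, 0 to 15.1 and 0 to 21.4 CPM on the high side. On the low side they ran from 0 to 2.16, 0 to 3.57, 2.14 to 49.7 and 0 to 5.21 CPM. Slc17a7, Tbr1 and Nrn1 were at 0 in every hexagon of the section.

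A pair of high-side hexagons stood apart and touches several results. Replicates 6 and 7 of the high side lie at medial-lateral coordinates of 1488 and 1507, where the low side has no hexagon (1151 to 1395). They held 1032 and 3.46 CPM of Vip, no count of Grp, and 28.5 and 65.8 CPM of Nms, the lowest Nms levels of the section. Replicate 6 was also the one hexagon with Slc17a6, the vesicular glutamate transporter of hypothalamic neurons (73.7 CPM, 31 counts). Both hexagons are of library set F, and whether they lie inside the nucleus was not tested. Values without both are given beside several results, as an alternative chosen after the data had been seen.

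The question of the section was which transcripts differ between its sides. Vip had the widest gap in level of the peptide genes: the median was 10277.5 CPM on the high and 525 CPM on the low side. Calretinin (Calb2), the receptor phosphatase Ptprk, the enzyme Lta4h and the vesicle protein Syt4 were higher on the Vip side, and enkephalin (Penk), Nell1, Cd164 and Chodl lower, by log2 differences between -1.72 and 1.51. None of these passed the main test, while Calb2, Ptprk, Syt4 and the postsynaptic scaffold gene Dlgap1 did pass as a slope along the coordinate. With edgeR's quasi-likelihood test and Benjamini-Hochberg adjustment over 7923 genes, 0 genes (0%) were higher and 0 (0%) lower on the high side at an adjusted p under 0.05. At an unadjusted p under 0.05 the count was 360 (4.54%), with 168 higher (2.12%) and 192 lower (2.42%). The share of 4.54% is not above what this threshold lets through when no gene differs. DESeq2 on the same genes called 8 (0.101%), and they are the 8 genes Calb2, Ptprk, Lta4h, Syt4, Penk, Nell1, Cd164 and Chodl. The call therefore depends on the tool, with hexagons that may share an animal under both.

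**Figure D1:**
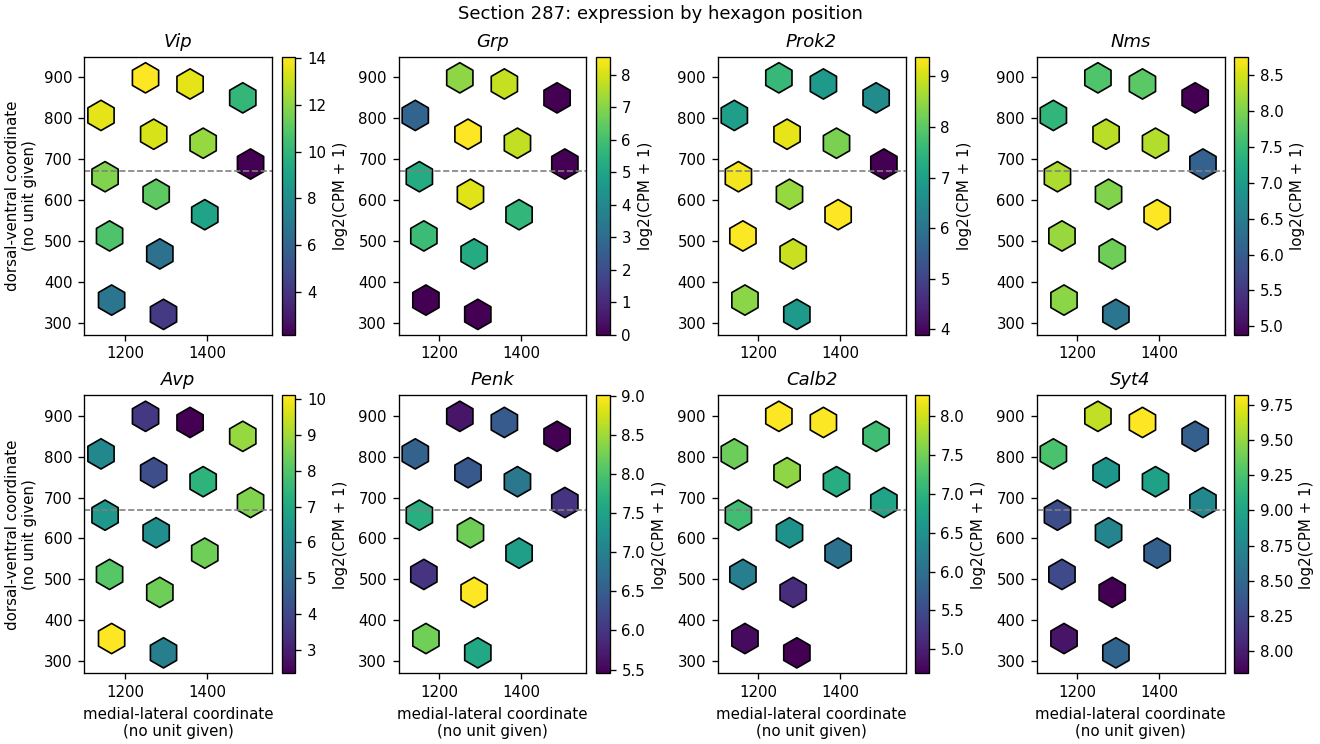
Each hexagon of section 287 at its medial-lateral (x) and dorsal-ventral (y) coordinate, both without a unit, coloured by log2(CPM + 1) of 8 genes on a scale of its own per panel; the dashed line marks 670. Vip and Calb2 are brightest at the top and Penk in the lower hexagons. Avp is brightest in the hexagon at 355, followed by the 2 hexagons at the right edge, which lack Grp.

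Vip ranged from 3.46 through a median of 10277.5 to 16928 CPM on the high side and from 16.6 through 525 to 3501 CPM on the low side. The sides overlapped through replicates 6 and 7 alone: the other 5 high hexagons held 4609 to 16928 CPM, above every low hexagon. On the low side Vip was also lowest at the bottom, with 16.6 CPM at 320 (2 counts), and highest next to the boundary, with 3501 CPM at 657. The log2 difference was 2.79 (SE 1.21, unadjusted p = 0.0398, edgeR adjusted p = 0.9997). Without replicates 6 and 7 it was 3.25 (SE 1.00, edgeR adjusted p = 0.5989). An exact two-sided permutation test over all 14 hexagons, described with Prok2 below, gave unadjusted p = 0.191 for Vip. Within library set E the mean log2(CPM + 1) differed by 3.54 and within set F by 2.90. Per length, Vip had the highest median of the peptide transcripts measured over the 14 hexagons, 580 RPKM against 252 for Nms, 218 for Avp, 172 for Prok2, 63.8 for Penk and 40.2 for Grp. This order came from the high side, where the Vip median was 3015 RPKM: on the low side it was 153 RPKM, below those of Avp (457), Nms (271) and Prok2 (254).

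Grp, the other peptide of the retinorecipient core, ran from 0 through 136 to 371 CPM on the high side and from 0 through 36.7 to 280 CPM on the low side. Counts were 0 in 2 hexagons of each side, which allows up to 24.9 CPM in the shallowest of them (3 counts; counting error only). The highest levels lay at medial-lateral coordinates of 1250 to 1391: the hexagon at 1141 on the high side held 5.56 CPM (2 counts) beside 11895 CPM of Vip. The sides overlapped widely, and the log2 difference was 0.91 (SE 1.12, edgeR adjusted p = 0.9997). It was 1.38 without replicates 6 and 7 of the high side, and with 1 hexagon left out it ran from 0.39 (without the high one at 761) to 2.12 (without the low one at 614). Grp was thus not distinguishable between sides at this depth and number of hexagons.

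Prok2 lay the other way, from 13.9 through 122 to 581 CPM on the high side and from 116 through 481 to 666 CPM on the low side. Of the low hexagons only the shallowest, at 320, fell below 345 CPM, while on the high side only the hexagon at 761 exceeded that level. The log2 difference was -1.17 (SE 0.58, unadjusted p = 0.0630, edgeR adjusted p = 0.9997). An exact two-sided permutation test over the 3432 splits of the 14 hexagons, added after the data had been seen and run on 8 genes, gave p = 0.0291 unadjusted for Prok2. For the other genes except Penk, given below, this permutation test gave unadjusted p = 0.191 (Vip), 0.146 (Avp), 0.202 (Per1), 0.216 (Nms), 0.790 (Grp) and 0.842 (Cck). Replicates 7 and 6 of the high side held the lowest Prok2 levels of the section (13.9 and 92.7 CPM). Without them the Prok2 difference was -0.80 (SE 0.47, edgeR unadjusted p = 0.114). Nms ran from 28.5 through 204 to 325 CPM on the high and from 82.9 through 267 to 428 CPM on the low side, with a log2 difference of -0.51 (SE 0.42, edgeR adjusted p = 0.9997). Without replicates 6 and 7 the Nms difference shrank to -0.13.

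Avp, the shell peptide, ran from 4.13 through 61.1 to 461 CPM on the high side and from 49.7 through 264 to 1089 CPM on the low side. Its 2 highest values of the high side, 461 and 384 CPM, were in replicates 6 and 7, the same hexagons that held little Vip and no Grp. The 3 lowest Avp levels of the section, 4.13, 11.3 and 17.4 CPM, were in high hexagons with 10277.5 to 16928 CPM of Vip. The log2 difference was -1.03 (SE 0.93, edgeR adjusted p = 0.9997), and -2.72 (SE 1.01, unadjusted p = 0.0225, edgeR adjusted p = 0.7411) without those 2 hexagons. Cck, the cholecystokinin gene, was scattered over both sides, from 0 through 19.97 to 349 CPM on the high and from 0 through 39.2 to 116 CPM on the low side. Its log2 difference of 0.76 (SE 1.15) became -0.60 without replicates 6 and 7, and -0.68 without replicate 6 alone, which held the 349 CPM.

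Penk, which encodes the opioid precursor proenkephalin, ran from 42.8 through 85.2 to 116 CPM on the high side and from 62.2 through 206 to 514 CPM on the low side. Of the low hexagons, 6 held more Penk (174 to 514 CPM) than any high hexagon, and replicate 2 at 512 (62.2 CPM) was the exception. The log2 difference was -1.72 (SE 0.32, unadjusted p = 1.2e-05, edgeR adjusted p = 0.0733), and Penk and Nell1 shared the smallest adjusted p of the section. Leaving out replicate 2 of the low side brought it past the threshold (log2 -1.89, edgeR adjusted p = 0.001975), the only 1 of the 14 such fits that did so, and among the others the adjusted p reached 0.298. The exact two-sided permutation test gave p = 0.00408, unadjusted over its 8 genes, again over hexagons that may share an animal. In sets E and F the mean log2(CPM + 1) differed by -1.31 and -1.82.

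**Figure D2:**
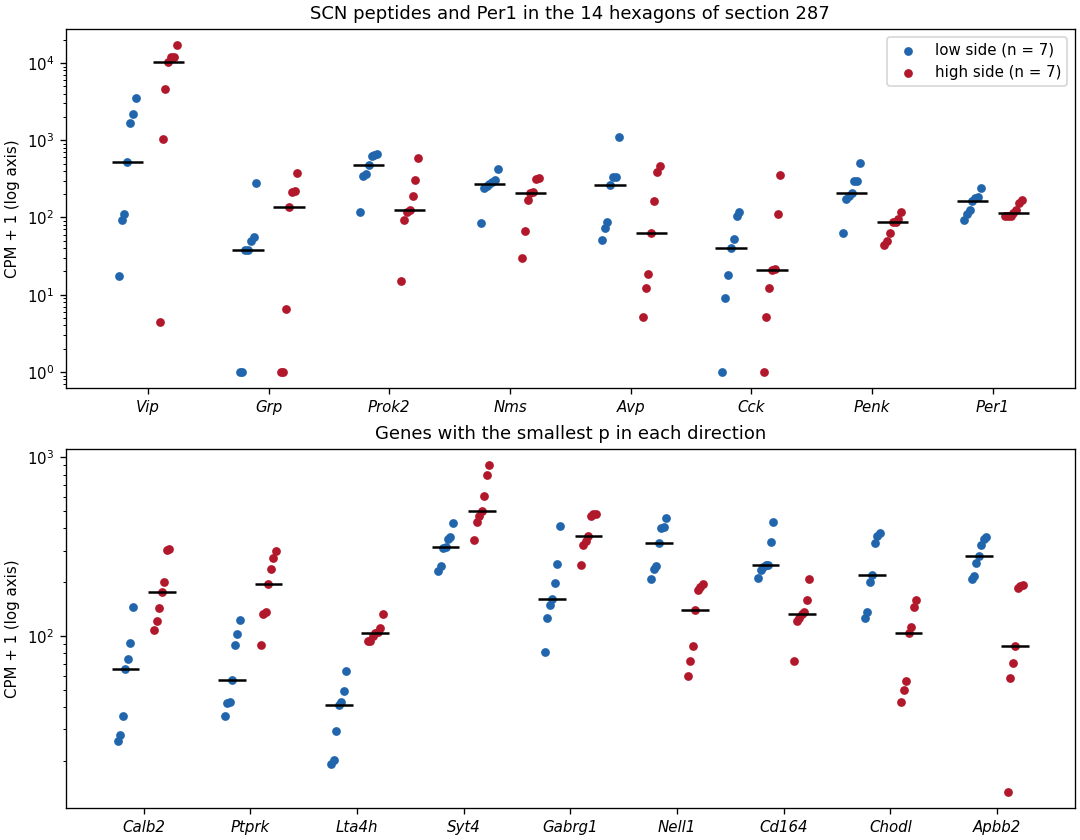
CPM + 1 on a log axis in each of the 7 low (blue) and 7 high (red) hexagons of section 287 for 8 fixed genes (top) and for 9 genes with the smallest p in either direction (bottom); bars are medians. The Vip sides overlap through 2 high hexagons, and Lta4h, Nell1, Cd164 and Apbb2 show no overlap.

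Calb2, the gene of the calcium-binding protein calretinin, followed the coordinate most closely. It ran from 24.9 through 64.6 to 143 CPM on the low side and from 107 through 175 to 306 CPM on the high side. From the bottom up, the 7 low hexagons held 24.9, 26.7, 34.5, 72.9, 64.6, 90.7 and 143 CPM, and the 7 high hexagons 107, 120, 200, 175, 143, 301 and 306 CPM. The sides overlapped, since the low hexagon at 657 exceeded the high ones at 688, 739 and 850. Between sides the log2 difference was 1.51 (SE 0.33, edgeR adjusted p = 0.113), and with the hexagons at 657 and 688 left out it was 1.91 (edgeR adjusted p = 0.0289). Those hexagons held the highest low and the lowest high Calb2 level (143 and 107 CPM). Leaving them out widens the difference in advance, so this pass is no separate support. As a slope along the dorsal-ventral coordinate over the 14 hexagons, an alternative to the comparison of sides, Calb2 rose by 0.60 log2 units per 100 coordinate units (SE 0.07, edgeR adjusted p = 3.39e-05).

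The slope fit called 4 of 7923 genes (0.0505%), and all 4 rose toward the high side. Besides Calb2 they were Ptprk, a receptor-type tyrosine phosphatase of cell contacts (0.50 per 100 units, SE 0.08, edgeR adjusted p = 0.00280), Dlgap1 (0.46, edgeR adjusted p = 0.0400) and Syt4, a synaptotagmin of secretory vesicles (0.25, edgeR adjusted p = 0.0400). Dlgap1 is named here because this fit called it. Calb2 and Ptprk passed with each hexagon left out in turn, the highest edgeR adjusted p being 0.000891 and 0.0309. Syt4 no longer passed in 9 and Dlgap1 in 7 of those 14 fits. These slopes too are over hexagons that may share an animal.

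Ptprk ran from 34.5 through 55.8 to 121 CPM on the low and from 88.0 through 195 to 297 CPM on the high side, and its sides overlapped in a few hexagons, replicate 6 of the high side being the lowest of its side. Between sides its log2 difference was 1.47 (SE 0.31, edgeR adjusted p = 0.107), and 1.70 (edgeR adjusted p = 0.0246) without replicates 6 and 7. Syt4 ran from 229 through 315 to 428 CPM on the low and from 345 through 499 to 900 CPM on the high side. Its log2 difference was 0.86 (SE 0.19, edgeR adjusted p = 0.137), and 1.04 (edgeR adjusted p = 0.0246) without that pair. The pair held the lowest Syt4 levels of the high side (345 and 433 CPM), and replicate 6 the lowest Ptprk level. Leaving out the pair favours a pass of both genes in advance, so these passes are no separate support. Syt4 has an exon that overlaps Gm26658 on the other strand, as Penk has with A830012C17Rik, so reads there cannot be assigned with certainty where the counting's strand setting is not known. The same holds for Dlgap1, Rgs16, Six6, Rora, Dusp1, Cx3cr1, Itpr1 and Ryr3.

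**Figure D3:**
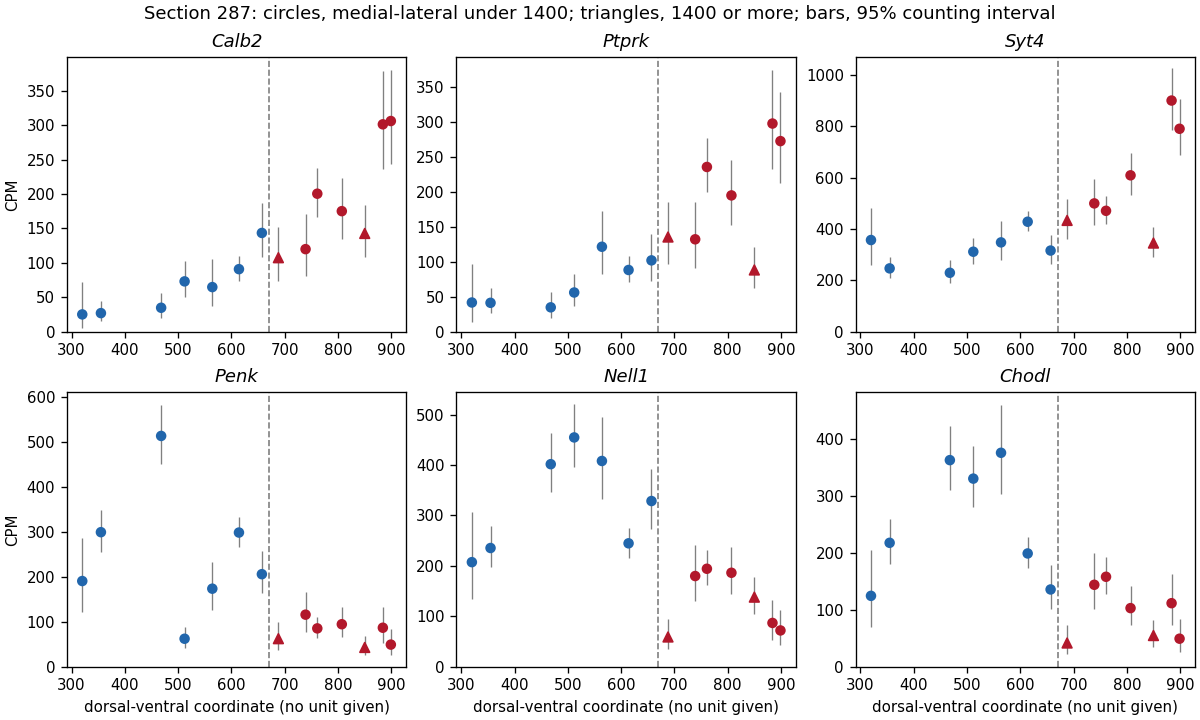
CPM of 6 genes in each hexagon of section 287 against its dorsal-ventral coordinate (no unit); blue, low side; red, high side; triangles, the 2 hexagons at a medial-lateral coordinate of 1400 or more; bars, exact 95% counting intervals. Calb2 climbs from 24.9 CPM at 320 to 306 CPM at 899, whereas Nell1 peaks at 455 CPM at 512 and is lower at both ends.

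With the 12 hexagons at medial-lateral coordinates under 1400, the slope fit called 16 genes that rose (0.212%) and 3 that fell (0.0397%) toward the high side. The genes named from this fit were chosen after their values were seen. Vip itself then passed, at 1.37 log2 units per 100 coordinate units (edgeR adjusted p = 0.0201), where the 14 hexagons gave 1.27 (SE 0.31, edgeR adjusted p = 0.381). The pair of hexagons left out held the least Vip of the high side. Leaving them out favours a pass of Vip in advance, so this pass is no separate support. Other genes that rose include Cadps2, which primes dense-core vesicles for release (0.47, edgeR adjusted p = 0.000200), the myo-inositol transporter gene Slc5a3 (0.34, edgeR adjusted p = 7.34e-05), the neuronal calcium sensor Ncald (0.46, edgeR adjusted p = 0.00912) and the synaptic pentraxin Nptx1 (0.78, edgeR adjusted p = 0.0287). The 3 that fell are the vesicle genes Syt1 (-0.45, edgeR adjusted p = 0.0479), the calcium sensor of fast release, and Rab3b (-0.31, edgeR adjusted p = 0.0268), and Msn, the moesin gene of the cell cortex (-0.75, edgeR adjusted p = 0.0332). Calb2, Ptprk, Syt4 and Dlgap1 passed in this fit as well. Its hexagons are all among those of the first slope fit, so these passes are no separate support.

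In 7 genes the sides did not overlap at all: 2 higher (0.0252% of the genes tested) and 5 lower (0.0631%) on the high side. They were named for that after their values were seen where the rule for named genes had not chosen them. Of the 3432 splits of the 14 hexagons, a single split separates a gene fully in a given direction. Among 7923 genes some therefore separate when no gene differs, so a lack of overlap alone is no evidence of a difference. Lta4h, the leukotriene A4 hydrolase gene, ran from 18.2 through 40.3 to 62.6 CPM on the low side and from 92.7 through 103 to 132 CPM on the high side, so that the high hexagons were tightly grouped. Its log2 difference was 1.49 (SE 0.32, edgeR adjusted p = 0.109), but along the coordinate it did not pass (0.29 per 100 units, edgeR adjusted p = 0.709). In the low hexagon at 320 Lta4h rested on 5 counts. Its 95% counting interval there, 13.5 to 96.7 CPM, reached above the lowest high hexagon. The other gene above was Myl6, a myosin light chain, from 392 through 409 to 457 CPM against 269 through 346 to 388 CPM on the low side (log2 difference 0.32, edgeR adjusted p = 0.9997).

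Below lay Nell1, a secreted protein with EGF-like repeats, with 58.9 through 138 to 194 CPM on the high and 207 through 328 to 455 CPM on the low side (log2 difference -1.30, SE 0.25, edgeR adjusted p = 0.0733). The sialomucin gene Cd164 held 71.8 through 132 to 208 CPM on the high and 210 through 247 to 432 CPM on the low side (-1.03, SE 0.22, edgeR adjusted p = 0.107). Apbb2, an adaptor of the amyloid precursor protein, held 12.4 through 86.9 to 192 CPM on the high and 207 through 279 to 358 CPM on the low side (-1.33, SE 0.35, edgeR adjusted p = 0.721). In Cd164 the highest high and the lowest low hexagon nearly touched. In the shallowest low hexagon, at 320, Nell1 and Apbb2 rested on 25 counts each. Their 95% counting interval there, 134 to 306 CPM, reached below the highest high hexagon. The phosphatase gene Dusp1 (-0.94) and the chromatin protein gene Hmgb3 (-0.87) completed the 5. In Dusp1 too the sides nearly touched, at 80.5 CPM on the high and 82.9 CPM (10 counts) on the low side. Chodl, the lectin-like membrane protein chondrolectin, overlapped between sides (41.6 through 103 to 158 CPM on the high, 124 through 217 to 376 CPM on the low side) with a log2 difference of -1.40 (SE 0.30, edgeR adjusted p = 0.107).

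Among 23 peptide receptors, 10 were tested and 0 passed; the median log2 difference was -0.20, against 0.01 over all genes tested. Their unadjusted p was under 0.05 in 3, against 4.54% of all genes. Vipr2, the VIP receptor, ran from 45.0 through 87.0 to 343 CPM on the high side and from 140 through 315 to 474 CPM on the low side (log2 difference -1.20, SE 0.44, unadjusted p = 0.0157, edgeR adjusted p = 0.982). Prokr2, the prokineticin receptor, ran from 37.2 through 247 to 486 CPM on the high and from 180 through 562 to 907 CPM on the low side (-1.16, SE 0.46, unadjusted p = 0.0252, edgeR adjusted p = 0.9997). Both receptors had their higher median on the side with less Vip, and in both the sides overlapped. Adcyap1r1, the PACAP receptor, had its higher median on the high side (178 against 125 CPM, log2 difference 0.59, unadjusted p = 0.0321). Grpr, the Grp receptor, held 0 through 8.26 to 101 CPM on the high and 8.29 through 44.9 to 118 CPM on the low side (-0.90, SE 0.81). Without replicates 6 and 7 of the high side the edgeR unadjusted p was 0.0433 for Vipr2 (-0.86), 0.0688 for Prokr2 (-1.14) and 0.202 for Adcyap1r1 (0.37), and Grpr was at -0.43.

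Of 25 clock genes 24 were tested, with 12 log2 differences above and 12 below 0 and a median of 0.00. Per1, a light- and clock-driven repressor, ran from 104 through 114 to 165 CPM on the high and from 91.2 through 165 to 240 CPM on the low side (log2 difference -0.36, SE 0.24, edgeR adjusted p = 0.9997). Unadjusted p-values under 0.05 fell to Rora (-0.49) and Rorb (-0.51), nuclear receptors that drive the BMAL1 gene, both with the higher median on the low side and edgeR adjusted p = 0.982. The transcription factor list of the SCN had 8 of 10 tested genes below 0 (median -0.11), with Six6, a factor needed for the SCN to form, at 116 against 219 CPM in the medians of the high and low side (-0.80, SE 0.28, unadjusted p = 0.00749, edgeR adjusted p = 0.982). Over all 7923 genes tested, 4.54% had an unadjusted p under 0.05 by edgeR and 3899 lay below 0.

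All 6 immediate early genes tested, of 18 listed, had log2 differences below 0 (median -0.75), as did 3899 of all 7923 genes tested, with none past the adjustment. Nr4a1 (-1.13, edgeR unadjusted p = 0.0202) and Dusp1 (edgeR unadjusted p = 0.00158) had the smallest p-values. Members of the list that did not pass the filter on low counts lay the other way in part: the median was 18.9 CPM on the high and 0 on the low side for Egr3, 12.4 and 2.16 CPM for Arc, and 20.5 and 12.8 CPM for Jun. Of 32 genes of CREB and cAMP signalling 26 were tested (median 0.11), and 0 had an unadjusted p under 0.05. The same held for 17 of 22 glutamate receptors tested (median 0.09), 6 GABA synthesis and transport genes (median 0.08) and 11 granins and prohormone enzymes (median 0.02).

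Of the lists, calcium handling held the most genes at an unadjusted p under 0.05: 6 of 15 tested, all higher on the high side (list median 0.19), against 2.12% of all genes in that direction. Besides Calb2 these were Itpr1, the calcium release channel of the endoplasmic reticulum (13.9 through 63.1 to 125 CPM on the high, 8.29 through 20.2 to 33.9 CPM on the low side, log2 difference 1.54, SE 0.49, edgeR adjusted p = 0.982), the ryanodine receptor Ryr3 (1.23), the exchangers Slc24a2 (0.66) and Slc24a3 (0.88), and the calmodulin gene Calm2 (0.23). Without replicates 6 and 7 of the high side Itpr1 was at 0.99 (edgeR unadjusted p = 0.0833) and Ryr3 at 0.72 (edgeR unadjusted p = 0.298), so that neither had an unadjusted p under 0.05. None of the 6 passed the adjustment, and Calb1, the calbindin gene, was at -0.10. Among 14 GABA receptor genes tested 11 lay above 0 (median 0.30), led by Gabrg1, the gamma-1 subunit, at 247 through 360 to 480 CPM on the high and 80.8 through 159 to 413 CPM on the low side (log2 difference 0.92, SE 0.25, edgeR adjusted p = 0.721). Of 13 potassium channels tested, Kcnd2 (0.93) and Kcnma1 (-0.60) had unadjusted p-values under 0.05. The 27 vesicle release genes tested had a median of 0.04, with Syt4 above and Syt17 (-1.27) and Unc13b (-0.84) below 0 at an unadjusted p under 0.05. The medians were -0.04 for 22 sodium, calcium and HCN channels, with Cacna1i (1.48) at an unadjusted p under 0.05, 0.10 for 13 axon and neurofilament genes and 0.09 for 8 genes of RGS proteins and Gpr176. Beside these counts, 4.54% of all genes tested had an unadjusted p under 0.05 by edgeR, and 4024 of 7923 lay above 0.

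**Figure D4:**
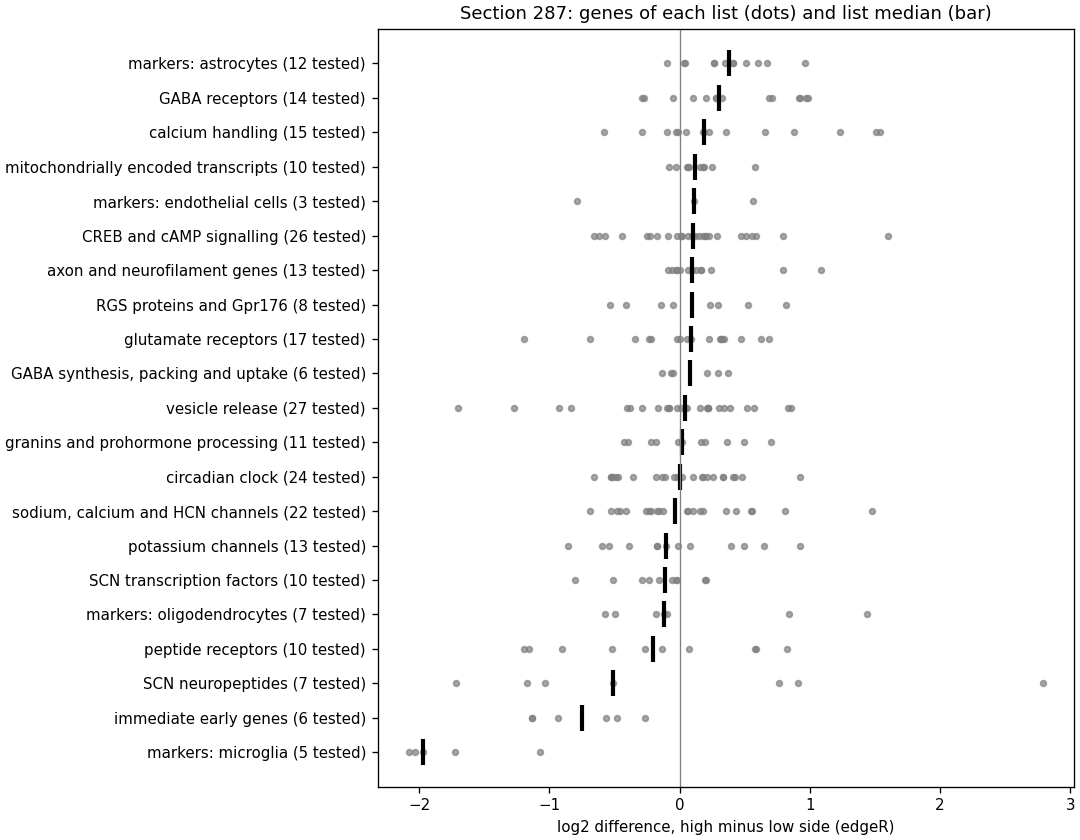
Log2 difference between the high and low side of section 287 (edgeR) for each tested gene of the 21 lists with 3 or more tested genes (dots) and the median of each list (bar); lists are ordered by median. Of the lists drawn, microglia markers lie lowest, with a median of -1.97, and astrocyte markers highest, with 0.38.

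Markers of other cells moved with the sides, and their part in the results above was not tested. All 5 tested of 10 microglia markers had log2 differences below 0 (median -1.97), and Cx3cr1, C1qb, C1qc and Ctss had unadjusted p-values under 0.05, against 2.42% of all genes in that direction. The summed microglia level ran from 11.3 through 61.8 to 324 CPM on the high and from 95.0 through 366 to 783 CPM on the low side. C1qb was at 0 in 3 high hexagons, which held 11895 to 16928 CPM of Vip. Of the 12 astrocyte markers 11 lay above 0 (median 0.38), against 4024 of all 7923 genes tested. Their summed levels were 4159 through 6574 to 9658 CPM on the high and 2091 through 5419 to 8488 CPM on the low side. Oligodendrocyte markers overlapped widely (summed 575 through 1478 to 5022 CPM against 195 through 687 to 4398 CPM). Of the markers of oligodendrocyte precursors, endothelial and mural cells, 1, 3 and 1 were tested, with medians of 0.39, 0.11 and -1.31 and none at an unadjusted p under 0.05. The globin gene Hbb-bs, which shares reads with a near-identical copy, reached 1217, 818 and 699 CPM in 3 high hexagons and at most 190 CPM on the low side (log2 difference 3.83, SE 1.44, unadjusted p = 0.0203).

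The sides of section 287 were then set against those of sections 239 and 335, the nearest before and after it, in 1 edgeR fit of 39 hexagons (12, 14 and 13). Only 2 hexagons of section 239 (set E) and 3 of section 335 (set F) came from the library sets of section 287. Median totals of sections 239, 287 and 335 were 361045.5, 377331.5 and 1233319. A difference between sections therefore cannot be told apart from one of library set or depth. The difference between sides in section 287 minus the mean of its neighbours passed for 0 of 9610 genes (0%), and 247 (2.57%) had an unadjusted p under 0.05. Vip medians in this fit were 6735, 10389 and 1018 CPM on the high sides of sections 239, 287 and 335, and 263, 521 and 30.2 CPM on the low sides. Its log2 difference between sides was 3.18 (SE 1.39), 2.81 (SE 1.26) and 3.79 (SE 1.34), and the section contrast was -0.68 (SE 1.48, edgeR adjusted p = 0.9999). Penk was likewise lower on the high side of each, by log2 differences of -1.26, -1.71 and -2.08. These fits too are over hexagons that may share an animal.

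For Calb2 and Ptprk, sections 239 and 287 had like values and section 335 a value near 0, a pattern not tested as such. Calb2 differed by 1.56 (SE 0.60), 1.53 (SE 0.55) and -0.15 (SE 0.54), and Ptprk by 1.42, 1.48 and 0.11. Lta4h differed by -0.09 (SE 0.39), 1.49 (SE 0.38) and 0.20 (SE 0.37), with a contrast of section 287 against its neighbours of 1.44 (SE 0.46, unadjusted p = 0.00319, edgeR adjusted p = 0.9999). Nell1 differed by 0.00, -1.30 and 0.45, with a contrast of -1.52 (SE 0.51, unadjusted p = 0.00495, edgeR adjusted p = 0.9999). Because Lta4h and Nell1 were chosen by their small p in section 287, these contrasts reuse the values that chose them. For C1qb the differences were 0.37, -2.07 and 1.26.

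**Figure D5:**
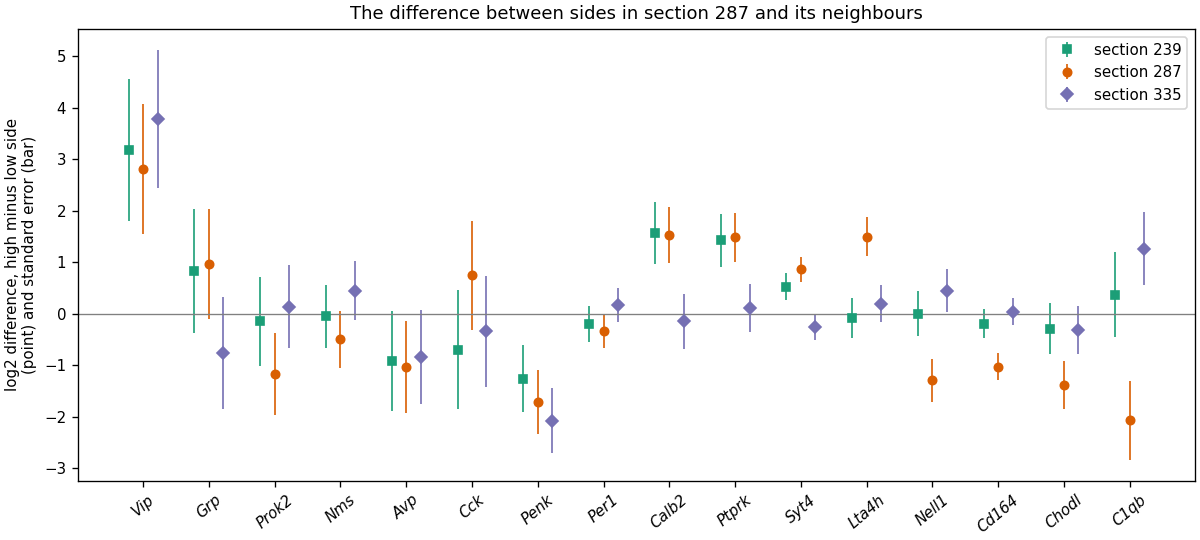
Log2 difference between high and low side (points) with its standard error (bars) in sections 239, 287 and 335 for 16 genes, from 1 edgeR fit of 39 hexagons. Vip lies above and Penk below 0 in all 3 sections, whereas Lta4h and Nell1 lie farthest from 0 in section 287.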

How the data were processed

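The authors deposited integer counts for 27515 genes, and RPKM values for 27055 of these. RPKM equals the deposited counts over gene length and table total to within 5.2e-15, so it served only to compare levels between genes. Per the submitters' processing notes, bcl2fastq 2, STAR and GRCm38 were used. Sources used here do not give the counting program, strand setting or annotation. Of the 17 named genes, 2 have an exon overlapping another gene.

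Sides were compared with edgeR 4.0.16 in R 4.3.3 (quasi-likelihood, TMM scaling, robust) on genes reaching 10 counts in at least 5 of the 14 hexagons (at least 10 of 39 for the 3 sections), with Benjamini-Hochberg adjustment and a threshold of 0.05. The biological coefficient of variation was 0.458. CPM uses TMM-adjusted totals, and permutation and within-set values use log2(CPM + 1). Intervals are exact 95% Clopper-Pearson and cover counting error only. Scripts were tested on simulated data. Alternatives were other scalings, filters, covariates, DESeq2 1.42.0, a slope along the coordinate, and fits without single hexagons.

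The members, gene lists and rules were chosen with earlier results of these data known. Named genes were Vip, Grp, Prok2, Nms, Avp, Cck, Penk and Per1 always, then the called genes of largest log2 difference with a mean of 20 CPM or more, or, where too few passed, the smallest p up to 5 in each direction. No pair of the 14 libraries was identical (correlations of log2(CPM + 1) from 0.559 to 0.797). Lists also covered RGS proteins, vesicle release, ion channels, axon genes, mitochondrially encoded transcripts, oligodendrocyte precursors, endothelial and mural cells.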

Additional observations from a re-analysis of the deposited data

Results flagged for a closer look

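On each side, the 17 named genes were checked for a hexagon far from the others (Dixon's ratio of gap to range), which made 34 groups, of which chance flags about 1 in 20; 3 were found. Grp reached 280 CPM in replicate 4 of the low side, at a dorsal-ventral coordinate of 614, where the next low hexagon held 55.8 CPM. That hexagon is the most deeply sequenced of the section (1058596 counts, 306 of them Grp), with an exact 95% counting interval of 249.8 to 314 CPM. Avp reached 1089 CPM in replicate 3 of the low side, at 355, against 335 CPM in the next. Cck reached 349 CPM in replicate 6 of the high side, at 850 and a medial-lateral coordinate of 1488, against 111 CPM in the next. Replicate 6 is also the hexagon with Slc17a6.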

How the results depend on the processing

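The count of genes that passed between the sides was 0 and stayed 0 with median-ratio size factors, library size alone, the medial-lateral coordinate, library set or both as terms, all 82 hexagons in the fit, and without the shallowest hexagon. It was 8 with DESeq2, 7 without a filter, 2 with the stricter filter (Penk and Nell1), 4 as a slope, 1 without the hexagons at 657 and 688, 2 at medial-lateral coordinates under 1400, and 0 to 1 with each hexagon left out. The stricter filter tests fewer genes (5179); the cause of the other moves was not tested. The contrast with the neighbouring sections called 0 genes under every alternative, and 0 to 0 with each hexagon of section 287 left out. The slope, whose further settings were chosen after seeing the data, called 9 genes with the medial-lateral coordinate as a covariate, 19 at coordinates under 1400, 2 with library size alone (Dlgap1 and Syt4 lost), 4 with library set or median-ratio factors, and 2 to 6 with each hexagon left out: 2 without high replicate 1, 2 or 4 or low replicate 3 or 7, and 6 without high replicate 6. Among named genes, Cck turned to -0.60 at coordinates under 1400 and ran from -0.68 to 1.19 with hexagons left out. Against the neighbours, Penk turned to 0.16 with the covariate and 0.36 against section 335 alone (-0.22 to 0.24 with hexagons left out), Avp to 0.27 without low-depth hexagons (-0.73 to 0.62), and Cck ran from -0.17 to 1.64. No paired analysis was possible because the labels number no replicates across the sides. With 1 hexagon as the unit and unknown animals, 7 against 7 and totals from 120175 counts limit what differences of low genes could be detected.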

Other observations

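Genes outside the comparisons above showed patterns of their own in section 287. Rgs16, a regulator of G-protein signalling in the SCN, was abundant on both sides, from 357 through 834 to 1864 CPM on the high and from 340 through 855 to 1157 CPM on the low side (log2 difference 0.23, SE 0.39, edgeR adjusted p = 0.9997). Rgs2 had its higher median on the high side (79.7 against 38.5 CPM, 0.82, unadjusted p = 0.0335, edgeR adjusted p = 0.9997). Scg2, a granin of dense-core vesicles, lay the other way (log2 difference -0.43, unadjusted p = 0.0519). Among 13 mitochondrially encoded transcripts 10 were tested, with a median log2 difference of 0.12 and 0 at an unadjusted p under 0.05 by edgeR. Sparse peptides appeared in few hexagons. Trh was detected in 3 high hexagons, with a high-side median of 0 and a maximum of 111 CPM, and was at 0 on the low side. Sst was detected in 3 low hexagons, reaching 224 CPM, and in 1 high hexagon at 2.38 CPM. The values are over hexagons that may share an animal.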
